A study of Mus musculus with 4 samples.

Results

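Libraries enriched for pachytene spermatocytes, the germ cells in the long middle stage of the first meiotic prophase, contained 581 expressed long intergenic noncoding RNAs (lincRNAs). These were found among 4979 autosomal lincRNAs and 55364 genes in all. Members were selected on their mean level over both genotypes, which a gene can reach through 1 genotype alone. A gene belonged to the set if GENCODE release M21 gave it the lincRNA biotype, if it lay on chromosomes 1 to 19, and if its mean over the 4 libraries was at least 3 TPM, a transcript abundance scaled to a common total and corrected for transcript length. The study sequenced total RNA of spermatocytes from testis, enriched by enzymatic digestion and centrifugal elutriation. One genotype, KK, was homozygous for a knock-in at Ddx4, which encodes a germline RNA helicase of germ granules, and the other, WT, was wild type, with 2 libraries each. The labels give no age, no number of animals and no description of the inserted sequence, and by its title the series asks what phase-separated germ granules do for RNA homeostasis. Ddx4 itself stood at 54.4 and 52.5 TPM in the KK libraries, against 265.0 and 272.9 TPM in the WT libraries.

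LincRNAs are transcribed from their own promoters between protein-coding genes, and most are capped, spliced and polyadenylated like messenger RNAs. Many are made at low levels, stay in the nucleus and are short-lived, and the nuclear RNA exosome with its adaptor proteins removes part of them. Testis is known for the large number of lincRNAs it expresses, and pachytene spermatocytes also transcribe the long precursors of pachytene piRNAs under the transcription factor MYBL1.

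The gene models of the 581 lincRNAs were short. The most expressed annotated transcript of each had a median of 752.5 bases and 3 exons, and 50 genes had a single exon. A polyadenylation signal stood in the last 50 bases of 58.8% of these transcripts, against 42.1% in the 4398 autosomal lincRNAs under 3 TPM and 72.0% in autosomal protein-coding genes of at least 3 TPM. The spans of 388 members overlapped no other annotated gene, and 160 overlapped a gene of the opposite strand. The kit does not mark strand, so reads from overlapping genes cannot be told apart. Exonic bases were shared with a gene other than a small RNA in 92 members, of which 22 were later called higher and 11 lower in KK.

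RefSeq promoters on GRCm38.p6, running from 250 bases before to 50 bases after a gene's start, could be matched to 347 of the 581 lincRNAs. The following are printed because they belong to abundant members or to members that share a promoter region with a neighbour. Capitals mark the letters of CAACTG (bound by MYB proteins), TGACGTCA (the cyclic AMP response element), GTTGCC (a half-site of RFX factors), CACGTG (the E-box), GGGCGG (the GC box) or TATAAA (the TATA box) on either strand.
Rbakdn promoter, minus strand of chr5:143165702-143166001: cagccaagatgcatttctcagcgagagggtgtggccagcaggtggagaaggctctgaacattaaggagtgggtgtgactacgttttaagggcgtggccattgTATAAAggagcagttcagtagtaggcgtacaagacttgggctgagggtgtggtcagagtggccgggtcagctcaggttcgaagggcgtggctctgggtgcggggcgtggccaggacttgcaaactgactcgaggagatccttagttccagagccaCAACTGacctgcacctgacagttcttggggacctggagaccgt
1700008K24Rik promoter, minus strand of chr17:49113484-49113783: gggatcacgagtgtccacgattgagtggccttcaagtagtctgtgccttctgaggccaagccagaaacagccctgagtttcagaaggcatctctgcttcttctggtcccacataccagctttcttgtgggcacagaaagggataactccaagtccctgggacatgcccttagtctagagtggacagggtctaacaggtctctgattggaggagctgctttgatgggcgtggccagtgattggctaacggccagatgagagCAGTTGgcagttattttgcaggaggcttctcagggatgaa
1700020N18Rik promoter, minus strand of chr1:91405980-91406279: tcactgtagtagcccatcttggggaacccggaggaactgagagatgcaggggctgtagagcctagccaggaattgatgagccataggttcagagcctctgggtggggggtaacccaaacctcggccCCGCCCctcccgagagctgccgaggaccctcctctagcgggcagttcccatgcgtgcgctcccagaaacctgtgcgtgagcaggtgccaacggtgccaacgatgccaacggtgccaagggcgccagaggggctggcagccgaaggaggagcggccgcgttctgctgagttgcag
1700040D17Rik promoter, minus strand of chr3:94412906-94413205: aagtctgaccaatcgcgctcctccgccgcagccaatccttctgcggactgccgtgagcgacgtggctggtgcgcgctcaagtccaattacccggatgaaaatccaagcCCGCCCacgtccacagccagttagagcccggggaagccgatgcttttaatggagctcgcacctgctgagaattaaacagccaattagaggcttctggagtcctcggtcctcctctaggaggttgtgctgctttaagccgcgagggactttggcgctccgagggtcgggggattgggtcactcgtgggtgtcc
Gm37294 promoter, minus strand of chr1:160044268-160044567: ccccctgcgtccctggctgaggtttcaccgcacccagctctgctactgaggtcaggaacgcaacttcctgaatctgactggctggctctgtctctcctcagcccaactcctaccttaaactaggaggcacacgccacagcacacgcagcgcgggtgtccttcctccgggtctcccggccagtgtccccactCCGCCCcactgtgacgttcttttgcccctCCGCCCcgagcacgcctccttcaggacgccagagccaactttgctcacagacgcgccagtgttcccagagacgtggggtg
Gm11608 promoter, minus strand of chr1:63273124-63273423: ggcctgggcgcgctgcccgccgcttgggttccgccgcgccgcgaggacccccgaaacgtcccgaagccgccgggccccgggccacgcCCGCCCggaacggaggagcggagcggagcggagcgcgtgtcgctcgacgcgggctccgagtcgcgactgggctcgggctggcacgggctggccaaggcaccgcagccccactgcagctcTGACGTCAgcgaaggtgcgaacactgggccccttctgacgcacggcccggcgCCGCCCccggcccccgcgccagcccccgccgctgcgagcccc

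Over the 347 promoters, CAACTG was present in 19%, against 16.1% of the promoters of lincRNAs under 3 TPM, 11.7% of those of autosomal protein-coding genes and 12.9% of all 20592 matched promoters. GTTGCC was present in 17.3%, against 14.2%, 12.4% and 13% in the same 3 sets. The GC box was present in 20.2% of the lincRNA promoters, against 11.7% of those of lincRNAs under 3 TPM, 48.8% of the protein-coding and 42.7% of all promoters. The median GC content was 49.3%, against 47.7%, 57.3% and 55.0% in the same order. The remaining shares for the expressed lincRNAs and for all promoters were 12.1% and 13.2% for TATAAA, 6.92% and 7.66% for CACGTG, and 4.03% and 2.22% for TGACGTCA. Among the 100 promoters of lincRNAs later called higher in KK, 26% held CAACTG and 27% held GTTGCC. Among the 34 of lincRNAs called lower these shares were 17.6% and 8.82%. CAACTG read on the other strand is CAGTTG, whose last 4 letters can open GTTGCC, and such a joint run stood in 7 of the 347 promoters. Of these 7, 5 belong to lincRNAs called higher, so the shares of the 2 motifs there rest in part on the same sites. These matches describe letters in a window and were not tested against genotype.

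Small RNAs lie within some members. The annotation placed 30 microRNA hairpins on the same strand inside 13 lincRNAs, 9 small nucleolar RNAs (snoRNAs) inside 5, and 3 small Cajal body RNAs inside 3. The mature microRNAs below are printed because their hosts are described later, with the seed (bases 2 to 8) in capitals. The libraries measured the host transcripts and not the mature microRNAs.
mmu-miR-129-5p (Mir670hg): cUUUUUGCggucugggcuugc
mmu-miR-129-2-3p (Mir670hg): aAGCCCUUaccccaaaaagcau
mmu-miR-670-5p (Mir670hg): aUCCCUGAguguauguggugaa
mmu-miR-670-3p (Mir670hg): uUUCCUCAuauccauucaggagugu
mmu-miR-191-5p (4833445I07Rik): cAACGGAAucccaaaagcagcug
mmu-miR-425-5p (4833445I07Rik): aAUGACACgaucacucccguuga
mmu-miR-9-5p (Mir9-3hg): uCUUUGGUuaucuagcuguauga
mmu-miR-453 (Mirg): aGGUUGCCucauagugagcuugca
mmu-miR-496a-5p (Mirg): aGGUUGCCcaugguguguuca
Of these, only miR-453 and miR-496a-5p shared a seed, GGUUGCC, and both lie in Mirg.

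The set was uneven in level. The 581 lincRNAs together held 1.91% and 1.86% of all TPM in the KK libraries, against 1.74% and 1.74% in the WT libraries, and 1.09% and 1.07% of the expected counts, against 0.971% and 0.971%. Total expected counts were 19438570 and 17970207 in KK, against 18156099 and 19246124 in WT, and a member had a median of 70.8 counts per library. The 10 most abundant members held 40.7% of the set's TPM in both KK libraries, against 41.1% in both WT libraries. Only 25 members reached 100 TPM, while 322 lay under 10 TPM. The median member stood at 9.96 and 9.55 TPM in KK, against 8.14 and 8.25 TPM in WT.

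The threshold cut through a continuum. Just inside it lay Gm36330, at 3.16 and 3.87 TPM in KK, against 1.42 and 3.59 TPM in WT, and BC049739, at 1.85 and 3.06 TPM in KK, against 2.35 and 4.78 TPM in WT. Just outside lay Gm4251, at 2.78 and 2.87 TPM in KK, against 2.76 and 3.52 TPM in WT, and AC124430.1, at 3.53 and 0 TPM in KK, against 4.29 and 4.08 TPM in WT. The mean reached 3 TPM in both genotypes for 493 members, in KK alone for 67 and in WT alone for 21. Below the threshold, 2503 lincRNAs were listed at 0 in every library.

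Among the expressed lincRNAs, 151 were higher in KK than in WT, 62 were lower and 328 did not pass the test. These are the 541 members that passed the filter on low counts, tested with edgeR's quasi-likelihood test and Benjamini-Hochberg adjustment over 16571 genes at 0.05. A gene can pass that filter through 1 genotype alone, so the counts describe the tested members and not the whole set. The 3 TPM rule was also met in KK alone by 35 of the 151 and in WT alone by 4 of the 62. The shares over all genes carry no such rule. Choosing members on WT TPM alone gave 116 higher and 64 lower, and on KK TPM alone 169 and 58. The 213 calls made up 39.4% of the tested members, which is below the 43.7% called among all genes. By direction, 27.9% of the lincRNAs were higher and 11.5% lower, beside a background of 22.0% higher and 21.7% lower among all genes. The KK values lay above the WT values without overlap in 44.2% of the tested lincRNAs and below in 27%, against 36.0% and 34.8% of all genes. Among autosomal protein-coding genes of at least 3 TPM, 53.7% were called, 20.8% higher and 32.9% lower, and among 345 tested lincRNAs under 3 TPM 21.2% were called, 16.5% higher and 4.64% lower. Changes of at least 2-fold were made by 73 lincRNAs upward (13.5%, background 8.88%) and by 3 downward (0.555%, background 0.754%). The median log2 fold change, KK over WT, was 0.13 for the tested lincRNAs and 0.003 for all genes. The labels do not say whether the 2 libraries of a genotype are separate animals, so the p-values measure a spread that may be technical.

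The 40 members that were not tested rested on few reads. They had 1 to 48 counts in sum over the 4 libraries, and their effective length was 1.31 to 214 bases with a median of 56.6, against 466 for the whole set, so that few reads gave a high TPM. Of these, 4 had 0 counts in both WT libraries and 2 had 0 counts in both KK libraries.

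**Figure D1:**
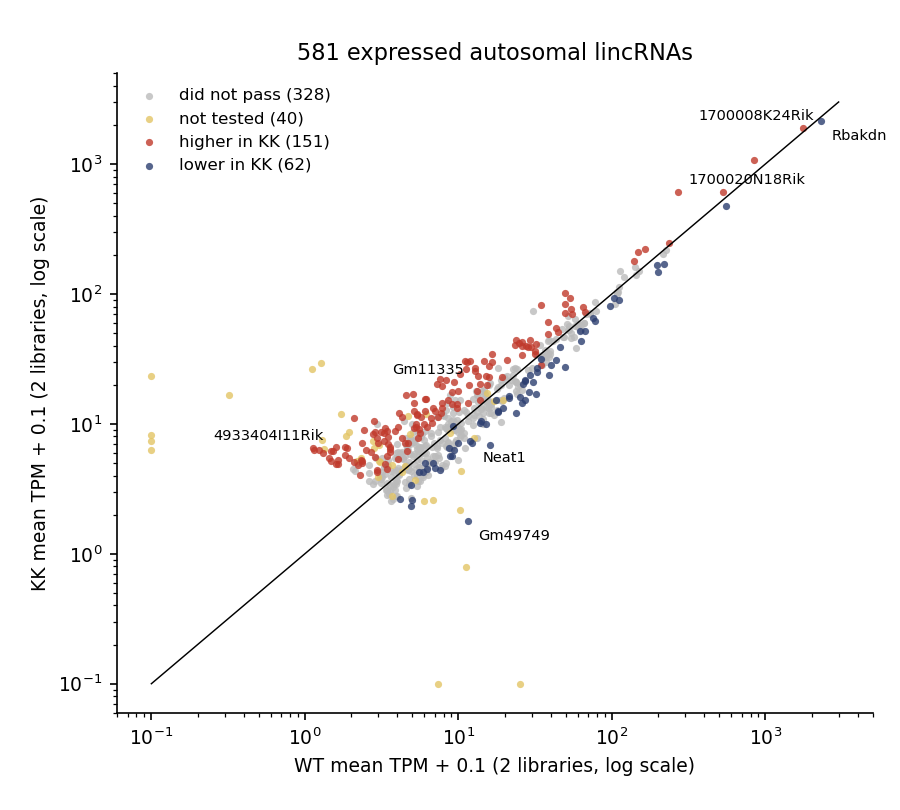
Mean TPM of each of the 581 lincRNAs in KK (vertical axis) and WT (horizontal axis), both on log scales after adding 0.1; the line marks equal levels and colours give the call. The red points (151 higher in KK) lie above the line at all levels, 77 of them under a mean of 10 TPM, the blue points (62 lower in KK) hug the line from below, and points at the edges are lincRNAs listed at 0 in 1 genotype, which were not tested.

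The balance of directions differed with the length of the transcript. Effective length, the part of a transcript from which a fragment could have come, was under 500 bases for 271 tested lincRNAs, of which 70 were higher (25.8%) and 7 lower (2.58%). Among the 270 with 500 bases or more, 81 were higher (30%) and 55 lower (20.4%). Autosomal protein-coding genes of at least 3 TPM differed by length in the same way, with 31.7% of 662 higher and 6.04% lower under 500 bases, and 19.9% of 8671 higher and 35.0% lower at 500 bases or more. The part of length in the lincRNA calls was not tested beyond these splits. An effective length offset gave 94 lincRNAs higher and 37 lower. It corrects only for differences in a gene's effective length between libraries, so it cannot address the split between short and long transcripts. Scaling by library size alone gave 169 higher and 39 lower, so that 81.2% of the lincRNA calls were upward, against 70.9% with the main scaling, and 64.2% of the calls over all genes, against 50.4%.

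Lower calls outnumbered higher ones among single-exon lincRNAs, while higher calls outnumbered lower ones among spliced lincRNAs. Of 44 tested single-exon members 17 were lower (38.6%) and 9 higher (20.5%), whereas of 497 spliced members 45 were lower (9.05%) and 142 higher (28.6%). Protein-coding genes were split the other way, with 24.5% of 302 single-exon genes lower and 31.1% higher, and 33.2% of 8976 spliced genes lower and 20.3% higher. The difference between these splits was not tested.

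**Figure D2:**
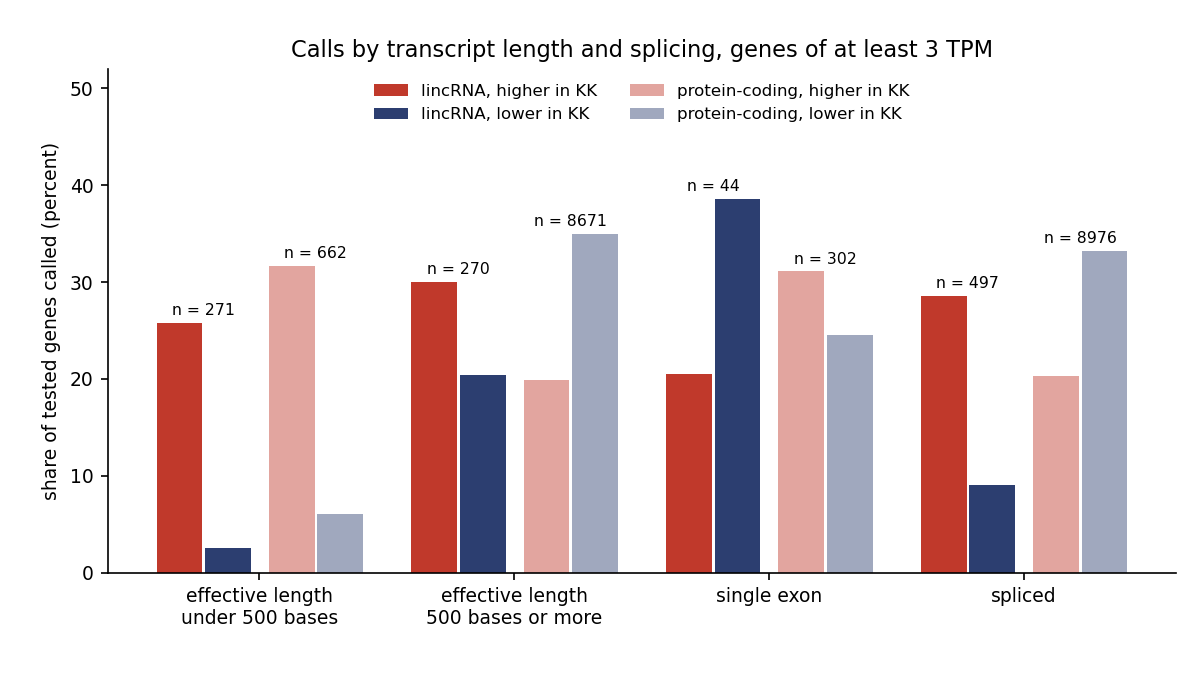
Share of tested genes called higher (red) or lower (blue) in KK, in percent, for expressed lincRNAs (dark) and autosomal protein-coding genes of at least 3 TPM (pale), by effective length and by splicing; n is the number tested. Lower calls are rare under 500 bases in both classes (2.58% and 6.04%), and single-exon lincRNAs are the 1 lincRNA group shown in which lower calls (38.6%) outnumber higher ones (20.5%).

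Lower calls made up a smaller share at low levels. At 3 to 5 TPM, 35 of 125 tested lincRNAs were higher (28.0%) and 6 lower (4.8%), with a median log2 fold change of 0.35, while at 100 TPM or more 8 of 25 were higher (32.0%) and 6 lower (24%), with a median of -0.01. Among protein-coding genes 20.8% were higher and 19.5% lower at 3 to 5 TPM, and 20.9% were higher and 36.7% lower at 100 TPM or more. The rule for the set was met in KK alone by 67 members and in WT alone by 21. Direction near 3 TPM therefore cannot be told apart from the effect of this rule, and the split by level was not tested. The naming series of the symbols also divided the set. The largest naming series held 270 members, the RIKEN clones of the number series that come mainly from testis libraries, such as 1700020N18Rik and 4933404I11Rik. They carried 54.2% of the set's TPM, and of 256 tested 90 were higher (35.2%) and 20 lower (7.81%). With the effective length offset 57 of them were higher, and 9 were lower when scaled by library size alone or by DESeq2. Gm gene models gave 52 higher (24.5%) and 23 lower (10.8%) among 212. Other RIKEN clones gave 5 higher and 10 lower among 33, and lincRNAs with other symbols 4 higher and 9 lower among 40.

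Marker levels of other testis cell types also moved with genotype. Leydig cell markers summed to 2494 and 2574 TPM in KK, against 698.1 and 735.5 TPM in WT, most of it Insl3, a Leydig hormone, and 9 of 10 tested were higher. Spermatogonial markers were higher for 8 of 12 and lower for 1, with sums of 87.5 and 96.97 TPM in KK, against 65.7 and 113.0 TPM in WT. The sum of WT replicate 2 holds Uchl1 at 66.2 TPM from 199 counts, against 17.9 TPM from 164 counts in WT replicate 1. In KK, Uchl1 stood at 32.0 and 33.0 TPM. Pachytene markers summed to 14180 and 13950 TPM in KK, against 14710 and 14550 TPM in WT, with 1 of 15 higher and 9 lower. Most of this sum was Ldhc, a lactate dehydrogenase gene, at 9748 and 9459 TPM in KK, against 9688 and 9534 TPM in WT. Markers of the labelled cell type were thus expressed in every library, but the spermatid sums were larger. Spermatid markers summed to 19190 and 18690 TPM in KK, against 21700 and 21580 TPM in WT, with 5 of 14 higher and 8 lower. Sertoli markers summed to 305.6 and 306.2 TPM in KK, against 196.8 and 199.6 TPM in WT (2 of 10 higher, 3 lower). Most of this sum was Ptgds, a prostaglandin synthase gene, and without it the Sertoli markers summed to 114.4 and 119.0 TPM in KK, against 123.8 and 125.8 TPM in WT. Peritubular and endothelial, macrophage and erythroid markers each stayed under 12 TPM in sum in every library, with 5 of 7, 2 of 5 and 0 of 2 higher and none lower. Beside these marker counts stand 22.0% higher and 21.7% lower among all genes. None of the 86 markers was listed at 0 in all 4 libraries. The part of these cells in the lincRNA calls was not tested, and in bulk RNA fewer cells of a type and less RNA per cell cannot be told apart.

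Rbakdn, the lincRNA downstream of the zinc finger gene Rbak on chromosome 5 (143164779 to 143165751, GRCm38), was the most abundant member. It stood at 2212 and 2046 TPM in KK, against 2256 and 2355 TPM in WT. The KK libraries lay below the WT libraries by a small margin, with a log2 fold change of -0.13 ± 0.04 (SE; edgeR adjusted p = 0.0128). This call was lost in 7 of 14 alternatives, among them the fits without KK replicate 2 and without WT replicate 2. 1700008K24Rik (chromosome 17, 49112263 to 49113535) followed, at 1915 and 1840 TPM in KK, against 1777 and 1740 TPM in WT. Its rise of 0.10 ± 0.04 (log2; edgeR adjusted p = 0.0293) was also lost in 7 of 14 alternatives, including those without KK replicate 1, WT replicate 1 or WT replicate 2.

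Larger differences came lower in the ranking. 1700018B24Rik (chromosome 3, 48605732 to 48609102) stood at 1091 and 1069 TPM in KK, against 844.6 and 838.9 TPM in WT, a log2 fold change of 0.37 ± 0.04 (edgeR adjusted p = 7.39e-09). 1700029M20Rik (chromosome 4, 135626655 to 135630198) stood at 603.2 and 623.9 TPM in KK, against 532.2 and 527.7 TPM in WT, a change of 0.27 ± 0.03 (edgeR adjusted p = 2.38e-07). Both were higher in KK without overlap between the genotypes, and both calls held in each of the 14 alternatives. Gm2762 (chromosome 13, 53393657 to 53455630) went the other way, with 464.1 and 489.3 TPM in KK, against 565.2 and 549.0 TPM in WT (-0.26 ± 0.04; edgeR adjusted p = 6.17e-07).

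1700020N18Rik changed most among the 10 most abundant lincRNAs. It lies on chromosome 1 (91404879 to 91406029), 5454 bases from Hes6, a transcription factor gene of the Hes family. Its level was 597.9 and 611.6 TPM in KK, against 262.7 and 280.4 TPM in WT. Both KK libraries were more than 2-fold above both WT libraries, with a log2 fold change of 1.16 ± 0.06 (edgeR adjusted p = 2.17e-15). Hes6 did not pass the test, at 3.56 and 2.07 TPM in KK, against 2.84 and 2.19 TPM in WT. Of the remaining members of the 10, 1700001L05Rik and 1700104B16Rik were higher in KK (0.16 ± 0.04 and 0.48 ± 0.07, log2; edgeR adjusted p = 3.94e-04 and 1.01e-06). The call on 1700001L05Rik was lost in both limma fits on TPM and under the effective length offset. 1810044D09Rik and 4930449C09Rik did not pass, with log2 fold changes of -0.04 ± 0.09 and -0.07 ± 0.04.

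The 8 largest rises were made by low members, and each of the 8 averaged 3 TPM or more in KK alone. The rule for the set thus took them in through the genotype in which they were high, as it did for 35 of the 151 lincRNAs called higher, while 4 of the 62 called lower reached 3 TPM in WT alone. 4933404I11Rik (chromosome 7, 40262705 to 40269753) stood at 5.37 and 7.46 TPM in KK, from 75 and 95 counts, against 0.82 and 1.23 TPM in WT, from 10 and 16 counts. Both KK libraries were high and both WT libraries low, with a 6.16-fold difference (edgeR adjusted p = 2.19e-07). 4933408J17Rik (chromosome 10, 93589413 to 93605245) stood at 6.53 and 5.67 TPM in KK, against 1.55 and 1.20 TPM in WT, a 4.46-fold difference (edgeR adjusted p = 8.26e-09). It overlaps the start of Snrpf, a gene for an Sm protein of the spliceosome on the opposite strand. Their starts lie 293 bases apart, with 168 exonic bases in common. Snrpf did not pass, at 16.8 and 17.8 TPM in KK, against 16.8 and 20.96 TPM in WT.

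The other rises of this size had similar levels. 1700017M07Rik rose 5.42-fold (edgeR adjusted p = 5.52e-06) and Gm37294, which has a head-to-head partner described later, rose 5.39-fold (edgeR adjusted p = 4.18e-04). 1500035N22Rik, inside the AMP-activated kinase subunit gene Prkag2 on the opposite strand, rose 4.40-fold (edgeR adjusted p = 5.77e-05), while Prkag2 fell by 0.38 on the log2 scale (edgeR adjusted p = 1.4e-09). Single libraries weighed on the others. 4930572O13Rik rose 4.72-fold (edgeR adjusted p = 2.28e-04) and 7.23-fold without WT replicate 2. Gm38554, at 5.18 and 6.96 TPM in KK, against 0.56 and 2.27 TPM in WT, rose 4.17-fold (edgeR adjusted p = 0.00131), 2.63-fold without WT replicate 1 and 10.5-fold without WT replicate 2, and its call was lost with limma on log2(TPM + 0.1). Gm40662 rested on 16 and 11 counts in KK, against 2 and 2 in WT (6.05-fold; edgeR adjusted p = 0.00412), and its call was lost with DESeq2 and without KK replicate 1, WT replicate 1 or WT replicate 2. With limma on log2(TPM + 1), which understates low genes, 4933404I11Rik, Gm40662, 1700017M07Rik and 4930572O13Rik were 3.64-, 3.47-, 3.36- and 3.14-fold higher.

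A fall of at least 2-fold was seen in 3 lincRNAs, and 1 of them was larger than any rise in the set that passed. Gm49749 (chromosome 12, 82000268 to 82000919) stood at 2.63 and 0.73 TPM in KK, from 14 and 4 counts, against 11.03 and 11.91 TPM in WT, from 50 and 58 counts. It averaged 3 TPM or more in WT alone, so the rule for the set took it in through the genotype in which it was high. Both KK libraries were lower, by 6.31-fold (edgeR adjusted p = 7.66e-06), and by 13.4-fold without KK replicate 1. All 652 of its exonic bases lie in exons of Pcnx on the same strand, so its reads cannot be told from those of Pcnx by position. Pcnx fell by 0.34 on the log2 scale, with 45.1 and 44.0 TPM in KK, against 58.3 and 47.2 TPM in WT (edgeR adjusted p = 1.04e-07). Gm37867 (chromosome 3, 28852033 to 28854257) stood at 7.60 and 5.91 TPM in KK, against 14.7 and 17.4 TPM in WT (2.36-fold lower; edgeR adjusted p = 1.70e-06). 1700008C04Rik was 2.16-fold lower (edgeR adjusted p = 0.0327), a call lost in 7 of 14 alternatives, including those without KK replicate 1 and WT replicate 2.

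The next falls came just under 2-fold. Gm41349 stood at 12.5 and 11.4 TPM in KK, against 24.9 and 22.2 TPM in WT (1.96-fold lower; edgeR adjusted p = 3.63e-07). Its nearest protein-coding gene, Eppk1, 3813 bases away, fell by 0.95 on the log2 scale (edgeR adjusted p = 1.33e-06). Gm7292, with a single exon in its most expressed transcript, stood at 28.4 and 26.7 TPM in KK, against 45.5 and 53.3 TPM in WT (1.88-fold lower; edgeR adjusted p = 7.00e-09). The lincRNA 1700030F04Rik on its opposite strand was higher in KK, at 16.4 and 23.8 TPM, against 6.65 and 7.60 TPM in WT. Gm16973, which overlaps Mphosph8, a gene for a reader of methylated histone H3, on the opposite strand, was 1.82-fold lower (edgeR adjusted p = 1.66e-08), and Mphosph8 fell by 0.47 on the log2 scale (edgeR adjusted p = 2.17e-10). 4930428D20Rik was 1.87-fold lower (edgeR adjusted p = 0.00118). Gm27032 was 1.93-fold lower (edgeR adjusted p = 0.0121), and this call was lost with DESeq2 and without KK replicate 2 or WT replicate 2.

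**Figure D3:**
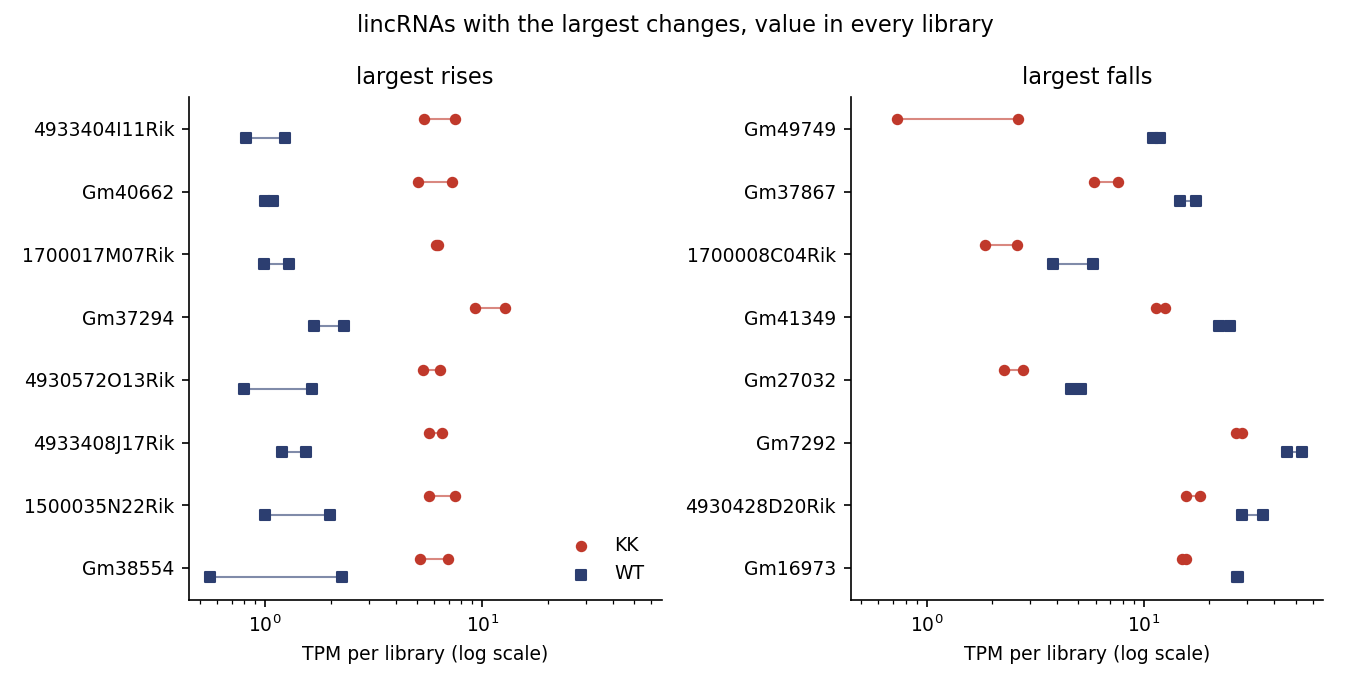
TPM in each library, on a log scale, of the 8 lincRNAs with the largest rises (left) and the 8 with the largest falls (right) among those past the test; circles are KK, squares WT, and a line joins the 2 libraries of a genotype. No lincRNA shown has overlapping genotypes, and the widest gap between libraries is in Gm38554 in WT (0.56 and 2.27 TPM) and Gm49749 in KK (2.63 and 0.73 TPM).

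The lincRNAs of nuclear bodies were lower in KK, and so was the lincRNA Norad. Neat1 (chromosome 19, 5824708 to 5845478), the scaffold of nuclear paraspeckles, stood at 6.04 and 8.03 TPM in KK, against 12.6 and 11.9 TPM in WT. Both KK libraries lay below both WT libraries, with a log2 fold change of -0.85 ± 0.11 (edgeR adjusted p = 1.62e-07). 2900097C17Rik (chromosome 2, 156388065 to 156392979), the mouse Norad, which binds Pumilio proteins in the cytoplasm, has 1 exon of 4915 bases. It stood at 14.75 and 14.02 TPM in KK, against 25.8 and 25.7 TPM in WT, a 1.79-fold fall (edgeR adjusted p = 2.40e-12). Malat1, a lincRNA of nuclear speckles that lay under the level of the set, was also lower, at 1.48 and 1.37 TPM in KK, against 3.24 and 2.40 TPM in WT (1.73-fold, edgeR adjusted p = 1.62e-05). Miat was lower near the floor, at 0.22 and 0.23 TPM in KK, against 0.66 and 0.45 TPM in WT (1.95-fold, edgeR adjusted p = 0.0109). It shares 2260 exonic bases with the member Gm26953 on the opposite strand, which did not pass. Reads of Miat and Gm26953 in these bases cannot be told apart. All 3 tested lincRNAs of the nuclear body list were thus lower. Of 7 tested genes of a list of other studied long noncoding RNAs 2 were lower, Norad among them, and 0 higher. Beside these counts stand 22.0% higher and 21.7% lower among all genes. Of expressed lincRNAs with an effective length of 500 bases or more 20.4% were lower, against 2.58% of shorter ones. Of single-exon lincRNAs 38.6% were lower. The part of length and splicing in the falls of these lincRNAs was not tested.

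The remaining studied lincRNAs varied. Pvt1, the neighbour of Myc, stood at 8.99 and 12.04 TPM in KK, against 8.67 and 9.58 TPM in WT and did not pass (edgeR adjusted p = 0.303). Of the 6 tested genes of the imprinted list, 3 were higher and 1 lower, all of them outside the set, beside 22.0% higher and 21.7% lower among all genes. H19, the maternally expressed lincRNA beside Igf2, was higher from few reads, with 12 and 15 counts in KK, against 3 and 3 in WT (edgeR adjusted p = 0.0132). Rian, from the same imprinted region as Mirg, and Peg13 were higher as well, and Nespas was lower. The 1 gene of the list that belongs to the set, Mirg, the maternally expressed host of 14 microRNA hairpins on chromosome 12 (109729764 to 109749460), did not pass, at 30.5 and 34.8 TPM in KK, against 34.9 and 36.7 TPM in WT (edgeR adjusted p = 0.369).

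Of the 21 host genes of small RNAs, including 3 hosts of small nuclear RNAs, 4 were higher in KK and 2 lower, beside 22.0% higher and 21.7% lower among all genes. The higher ones were 1700030N03Rik (2.16-fold; edgeR adjusted p = 8.73e-04), 4930513D17Rik (1.61-fold; edgeR adjusted p = 0.0448), 1700001G01Rik (1.31-fold; edgeR adjusted p = 0.00450) and Gm21269 (1.15-fold; edgeR adjusted p = 4.42e-05). Mir670hg (chromosome 2, 94160636 to 94264918), which holds the hairpins of miR-129 and miR-670 printed above, stood at 15.96 and 15.26 TPM in KK, against 21.5 and 20.9 TPM in WT. The KK libraries were 1.36-fold lower without overlap (edgeR adjusted p = 0.0190), but the call was lost in 5 of 14 alternatives, among them those without KK replicate 2 and WT replicate 1. 4833445I07Rik, the host of miR-191 and miR-425 on chromosome 9 (108567533 to 108569174), was 1.30-fold lower (edgeR adjusted p = 0.0443), a call lost in 9 of 14 alternatives, with KK replicate 2, WT replicate 1 or WT replicate 2 left out among them. Mir9-3hg did not pass, at 10.1 and 14.2 TPM in KK, against 13.5 and 12.6 TPM in WT (edgeR adjusted p = 0.503). None of the 4 members named Snhg passed, and Epb41l4aos did not either. Of the 4, Snhg6 and Snhg12 hold annotated snoRNAs, while Snhg10 and Snhg20 each hold a small Cajal body RNA and a microRNA. Snhg10 differed most between libraries of a genotype, at 8.62 and 1.69 TPM in KK, against 8.48 and 11.3 TPM in WT (edgeR adjusted p = 0.0882).

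LincRNAs close to a protein-coding gene were compared with that gene. The nearest protein-coding gene lay at a median distance of 27270 bases, and for 199 members within 10 kb. In 421 pairs both genes were tested, and in 79 of these both passed, 40 in the same direction. Within 10 kb both genes passed in 33 of 162 tested pairs, 21 in the same direction. Where the lincRNA of such a pair did not pass, 33 of 103 nearest genes were lower and 14 higher. Across pairs, Pearson's r of the log2 fold changes was 0.09 over all pairs, 0.28 within 10 kb and -0.05 beyond 100 kb. These are correlations across genes measured in the same libraries, and genes are not independent replicates.

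Head-to-head pairs, whose starts lie within 1 kb on opposite strands, numbered 71. They had fewer upward calls than the rest, with 9 of 67 tested lincRNAs higher (13.4%) and 11 lower (16.4%), against 30% higher and 10.8% lower among the other 474, a difference that was not tested. Of 65 pairs with both genes tested 14 had both past the test, and 10 of the 14 went in the same direction, 7 down and 3 up. Where the lincRNA did not pass, 13 of 46 partners were lower and 4 higher. Of autosomal protein-coding genes of at least 3 TPM, 32.9% were lower and 20.8% higher. Whether shared falls exceed what these shares give was not tested. Pearson's r was 0.40 and Spearman's rho 0.25 over the 65 pairs, again across genes. Reads of the 2 genes of a pair were not separated by strand.

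1700040D17Rik fell together with Tdrkh. The lincRNA (chromosome 3, 94409395 to 94412919) stood at 25.5 and 24.1 TPM in KK, against 32.4 and 32.5 TPM in WT (-0.38 ± 0.11, log2; edgeR adjusted p = 0.00397, lost with DESeq2). Tdrkh, a Tudor protein on mitochondria that is needed for the trimming of piRNAs, starts 354 bases away and stood at 27.7 and 30.2 TPM in KK, against 38.5 and 40.1 TPM in WT (-0.60 ± 0.07; edgeR adjusted p = 6.61e-08). In both genes the KK libraries lay below the WT libraries. 5031425E22Rik and Kmt2e, a chromatin regulator of the MLL family, were lower by similar amounts, with log2 fold changes of -0.67 and -0.60. The call on 5031425E22Rik was lost in both limma fits on TPM and under the effective length offset.

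The remaining shared falls were small to moderate. Gm9484 and the kinase gene Bmp2k fell by 0.69 and 0.62 on the log2 scale, and the call on Gm9484 was lost with DESeq2. M5C1000I18Rik and C2cd4b, which share 627 exonic bases, fell by 0.70 and 0.45. Of the lincRNA calls in the other 3 pairs, 4833445I07Rik with Ndufaf3 (an assembly factor of respiratory complex I), Gm20554 with Irx2 (a homeobox gene) and 1110019D14Rik with 2610001J05Rik, each was lost in 6 to 9 of the 14 alternatives, in each case with at least 2 of the single libraries left out.

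Both genes were higher in KK in 3 pairs. Gm37294 (chromosome 1, 160041701 to 160044331) stood at 9.27 and 12.7 TPM in KK, against 1.67 and 2.31 TPM in WT. Its partner 4930523C07Rik starts 51 bases away and stood at 15.4 and 26.1 TPM in KK, against 5.11 and 3.35 TPM in WT (2.45-fold; edgeR adjusted p = 6.42e-06). Both genes were thus high in both KK libraries, and KK library 2 was the higher of the pair for each. Gm11608 (chromosome 1, 63266848 to 63273120) rose 3.09-fold, with 7.26 and 9.39 TPM in KK, against 2.16 and 3.21 TPM in WT (edgeR adjusted p = 2.24e-04). Gm37294 and Gm11608 averaged 3 TPM or more in KK alone, so the rule for the set took them in through the genotype in which they were high. Zdbf2, an imprinted gene 145 bases from Gm11608, rose 1.23-fold (edgeR adjusted p = 0.00548). 4930593A02Rik rose 1.30-fold beside the ubiquitin ligase gene Siah2, which rose 1.72-fold (edgeR adjusted p = 4.73e-14). The call on 4930593A02Rik was lost in 6 of 14 alternatives, including those without KK replicate 2 and WT replicate 2.

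In 4 pairs the lincRNA and its partner passed in opposite directions. 4933406P04Rik (chromosome 10, 20310506 to 20312294) stood at 42.6 and 46.1 TPM in KK, against 29.0 and 29.1 TPM in WT (0.61 ± 0.08, log2; edgeR adjusted p = 4.02e-07). Bclaf1, a nuclear protein gene that starts 175 bases away, stood at 21.5 and 25.6 TPM in KK, against 35.3 and 40.4 TPM in WT (-0.61 ± 0.07; edgeR adjusted p = 3.37e-08). The lincRNA was therefore the higher transcript of the pair per length in KK, and Bclaf1 the higher in WT. 1700104B16Rik rose by 0.48 at a distance of 14 bases from Gtf2e2, a subunit gene of the general transcription factor TFIIE, which fell by 0.23 (edgeR adjusted p = 1.72e-04). Gm16677 and Entpd4 differed in the same sense by small amounts (0.34 and -0.15). 4933406C10Rik fell by 0.42 and its partner Sypl rose 1.35-fold. The calls on Gm16677 and 4933406C10Rik were lost in 4 and 8 of the 14 alternatives, in both cases without WT replicate 2, and for Gm16677 without WT replicate 1 and for 4933406C10Rik without KK replicate 2 as well.

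**Figure D4:**
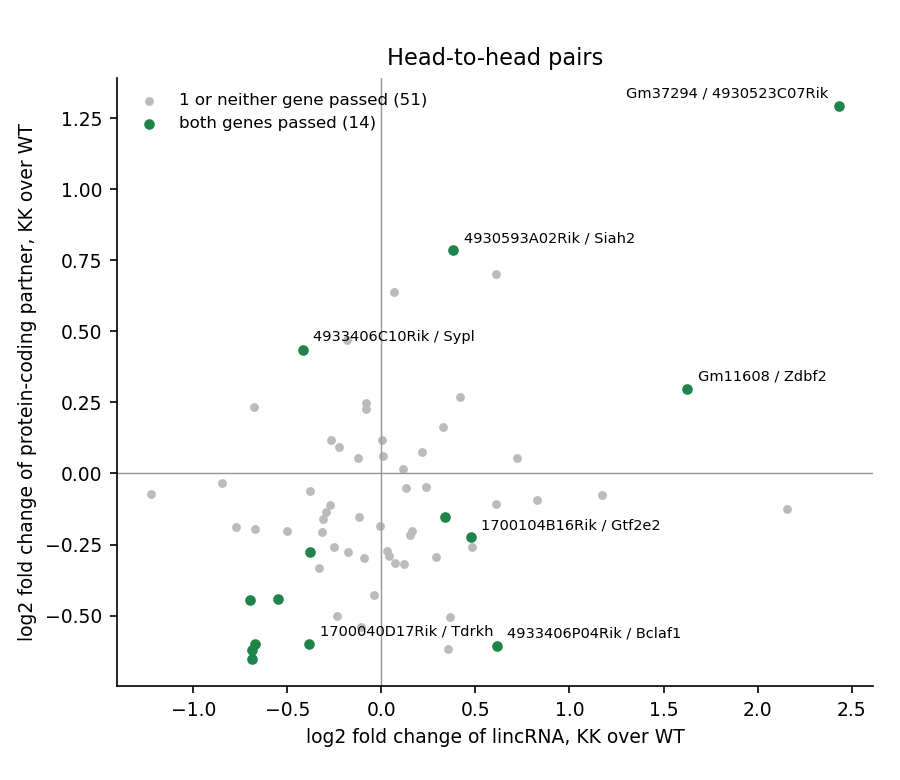
Log2 fold change, KK over WT, of each head-to-head lincRNA (horizontal) and of its protein-coding partner (vertical); green points are the 14 pairs in which both genes passed the test, grey points the other 51. Of the green points 7 lie in the lower left, 3 in the upper right, 3 in the lower right and 1 in the upper left, with Gm37294 and 4930523C07Rik farthest from the centre.

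Isoform shares were stable in most lincRNAs with enough counts. Of 276 members with at least 2 isoforms, 151 had 50 or more expected counts in each library, and the largest difference in any isoform's share between genotype means had a median of 4.23 percentage points. It exceeded 20 points in 4. Gm6455 (chromosome 5, 10865029 to 10870808) gave 45.8% and 23.9% of its transcripts as isoform 202 in KK, against 0.99% and 8.49% in WT. This isoform has 4 exons and the main isoform 201 has 5. 2810032G03Rik gave 50.7% and 38.1% as isoform 201 in KK, against 17.7% and 14.98% in WT. In both genes the KK libraries were above the WT libraries, and in Gm6455 the KK libraries also lay far apart from each other.

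The next genes in the same ranking had fewer counts. 1700095A13Rik gave 50.8% and 33.5% as isoform 203 in KK, against 18.1% and 11.6% in WT, and 4930402F11Rik gave 35.2% and 18.6% as isoform 202 in KK, against 0% and 9.43% in WT. Gm36445 gave 19.6% and 18.2% as isoform 205 in KK, from 22.94 and 21.96 expected counts, and was listed at 0 for it in both WT libraries. These are the authors' estimates of how reads divide among similar isoforms. With 2 libraries per genotype an exact permutation test of a share cannot go below p = 0.33, so no test was made.

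**Figure D5:**
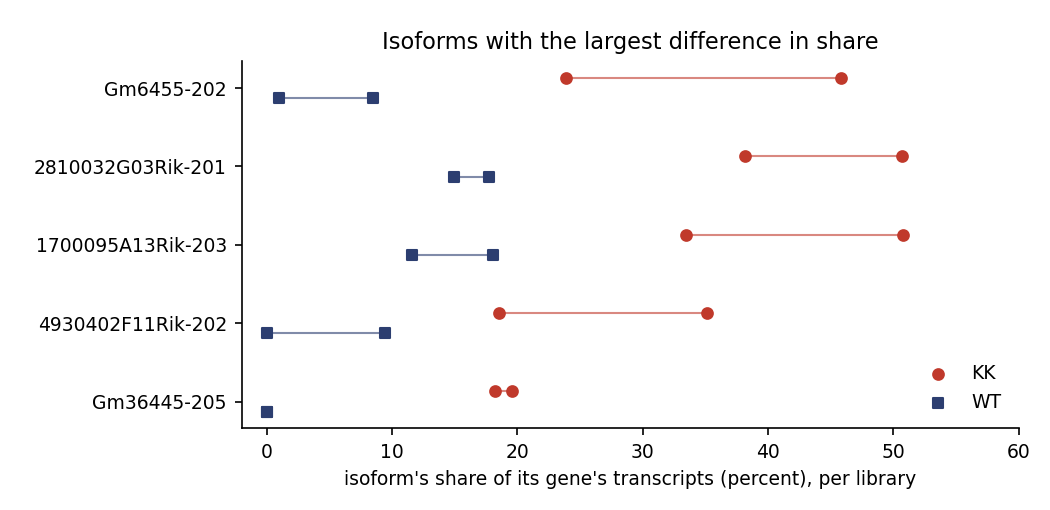
Share of the gene's transcripts held by 1 isoform, in percent, in each library, for the 5 lincRNAs with the largest difference between genotype means; circles are KK, squares WT, and a line joins the 2 libraries of a genotype. The KK libraries lie above the WT libraries in each, from Gm6455 isoform 202 (45.8% and 23.9% against 0.99% and 8.49%) to Gm36445 isoform 205 (19.6% and 18.2% against 0% in both).

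Genes that process or remove such transcripts passed in both directions. A list drawn up for the nuclear exosome, its adaptors and the cap-binding complex held 23 tested genes. Of these, 4 were higher (17.4%) and 6 lower (26.1%), which is near the 22.0% higher and 21.7% lower among all genes. The 6 include Mpp6 (1.32-fold lower, edgeR adjusted p = 1.44e-08), which was listed by symbol. In mouse this symbol names a membrane palmitoylated protein gene and not the exosome cofactor Mphosph6. Rbm7, an RNA-binding subunit of the nuclear exosome targeting complex, stood at 29.1 and 30.4 TPM in KK, against 15.6 and 15.6 TPM in WT (1.90-fold; edgeR adjusted p = 4.81e-09). Zcchc8, the scaffold of the same complex, was 1.31-fold higher (edgeR adjusted p = 3.25e-04), and the helicase gene Mtrex 1.14-fold higher (edgeR adjusted p = 6.90e-04). The cap-associated factor Srrt was lower, at 156.0 and 136.1 TPM in KK, against 178.0 and 175.8 TPM in WT (edgeR adjusted p = 1.39e-08). Exosome subunit genes went both ways. Exosc3 and Exosc10, which encodes a nuclear exonuclease of the complex, were 1.24- and 1.11-fold lower, and Exosc5 was 1.06-fold higher (edgeR adjusted p = 0.0421). Exosc1, Exosc2, Exosc4, Exosc7, Exosc8 and Exosc9 did not pass.

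Of 21 tested genes of pachytene piRNA precursor transcription and processing, 12 were lower (57.1%) and 2 higher (9.52%). Beside this stand 32.9% lower and 20.8% higher among autosomal protein-coding genes of at least 3 TPM, and 21.7% lower among all genes. Ddx4 itself, the gene altered in KK, is 1 of the 12, and the difference from these shares was not tested. Mybl1 stood at 21.4 and 26.7 TPM in KK, against 33.4 and 38.1 TPM in WT (1.56-fold lower; edgeR adjusted p = 5.71e-11). Piwil1, the PIWI protein that carries pachytene piRNAs, was 1.498-fold lower (edgeR adjusted p = 1.43e-13), and Tdrd5, a Tudor protein of precursor processing, was 1.54-fold lower (edgeR adjusted p = 9.93e-14).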

How the data were processed

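RNA sequencing counted fragments per gene and isoform in 4 libraries, 2 per genotype, from samples grouped by their labels. The submitters' processing notes name Bowtie, mm10 and GRCm38; for the quantifier and annotation, nothing was stated in the sources used here. The authors deposited, per the file headers, expected counts (estimated reads, not all whole), TPM, effective lengths and an isoform percent, the share of a gene's transcripts given to each isoform. Effective length is in bases. The deposited TPM values are divided by effective length, so a very short model can reach a high TPM from few reads.

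Identifiers were matched to GENCODE release M21 (55104 of 55364 found). Expected counts were rounded and tested with edgeR 4.0.16 in R 4.3.3 (TMM factors, default filter, quasi-likelihood fit on genotype, Benjamini-Hochberg at 0.05 over 16571 genes); standard errors (SE) are log2 fold changes over the square root of the F statistic. The code was tested on simulated data. Alternatives were other scalings and filters, DESeq2 1.42.0, limma 3.58.1 on log2(TPM + 1) and log2(TPM + 0.1), an effective length offset, a replicate block, each library left out, and other rules for the set; those on 1 genotype's TPM and on an effective length of at least 500 bases were chosen after seeing the data. Promoters and microRNAs are from RefSeq (GRCm38.p6), with no sequence of chromosome 18 shown.

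The members, gene lists and tests were chosen with earlier results of these data known. Named lincRNAs are the 10 most abundant, the 8 that rose most and the 8 that fell most among calls without overlap, members of lists of studied lincRNAs, the 2 on either side of the threshold, the 5 with the largest isoform difference, and head-to-head pairs past the test. Not every one taken is given with its values.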

Additional observations from a re-analysis of the deposited data

How the results depend on the processing

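Against 213 called lincRNAs (151 higher, 62 lower), DESeq2 called 130 (95 and 35) and the effective length offset 131 (94 and 37). Scaling by library size alone left 39 lower, and limma 37 with log2(TPM + 1) and 40 with log2(TPM + 0.1). A minimum of 10 TPM gave 116 calls (74 higher) among 251 tested, and an effective length of at least 500 bases 136 (81 higher) among 270; fewer genes were tested in both. Members that overlap no other gene gave 37 lower among 358. Over all genes, 7237 calls became 3826 and 3758 with limma on log2(TPM + 1) and log2(TPM + 0.1), and 4662 with the length offset. The causes of the other shifts were not tested.

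Leaving out each library in turn gave 166 to 185 calls, 112 to 132 higher and 52 to 59 lower, and 5925 to 6552 over all genes. Choosing members on WT TPM alone gave 116 higher and 64 lower, on KK TPM alone 169 and 58. Among lincRNAs with an effective length under 500 bases, 70 higher became 45 without KK replicate 1 and 46 without WT replicate 2, 38 with DESeq2 and 42 with the length offset. As a share of expected counts, the difference for Gm36445 isoform 205 was 13.7 points in place of 18.9.

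Libraries share numbers across genotypes, and the deviations of KK 1 and WT 1 correlated at r = -0.06 over 16571 genes, which gives no pairing. With a replicate block 213 lincRNAs were called, 149 higher and 64 lower, and 7309 genes in all. Over the named lincRNAs no call reversed; 727 results were on the same side of the threshold and 107 lost a call. Depth limits the low members: a member had a median of 70.8 counts per library, and the default filter left out 40. Without that filter all 581 entered the test and 212 were called.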
